A study of Mus musculus with 6 samples.

Results

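The genes of antigen presentation by the major histocompatibility complex (MHC) were examined in the duodenum of 6 mice. The set holds every gene of the deposited expression tables whose symbol starts with H2-, the prefix of the mouse MHC, together with B2m, Cd74, Ciita, Nlrc5, Tap1, Tap2, Tapbp, Psmb8, Psmb9, Psmb10, Erap1 and Cd1d1. This gave 54 genes of 23699 listed, 42 by the prefix and 12 by name. The rule used gene symbols and no measured value, but it was set with earlier results of these data known. H2-Ke2 and H2-Ke6 lie in the MHC and carry the prefix, but are not presentation genes.

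RNA-seq libraries had been made from the first 2 cm of duodenum of 6-week-old mice of mixed background, 3 controls and 3 mutants, described in the series title as an intestine-specific SD mutant. The genotypes were Nkx2.2flox/+; Rosa26Tomato/+ for control 1, Rosa26Tomato/+ for control 2 and WT for control 3. Mutants 1 and 3 were Nkx2.2flox/SD; Villin-Cre/+; Rosa26Tomato/+, and mutant 2 was Nkx2.2flox/SD; Villin-Cre/+. Nkx2.2 is a homeodomain transcription factor of intestinal endocrine cells, and Villin-Cre removes floxed sequence in the intestinal epithelium, so that only the SD allele is left there. No control carried Cre, and the SD allele was also present outside the epithelium of every mutant, so the effects of Cre, of the SD allele in other cells and of the epithelial genotype cannot be told apart. The comparison of mutants with controls asks how duodenal expression differs when the epithelium keeps only the SD form. Depth, as estimated from isoform coverage, was 19.1 to 22.9 M reads per library. Epcam, an epithelial marker, was at 720 to 777 fragments per kilobase per M mapped reads (FPKM, the unit of every level given here), and Pdx1, a transcription factor of the duodenum and pancreas, at 53.5 to 78.5. By their Y-linked transcripts control 1 and mutant 1 were male, with Eif2s3y at 36.7 and 35.4 FPKM against at most 0.0841 FPKM in the other 4 mice.

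MHC class I molecules, made of a heavy chain and the B2m light chain, show peptides from the inside of nearly every cell to CD8 T cells. The immunoproteasome cuts those peptides, the TAP transporter carries them into the endoplasmic reticulum, Erap1 trims them and tapasin helps to load them. Class II molecules, made of an alpha and a beta chain, show peptides from ingested material to CD4 T cells. Their partner in assembly is the invariant chain Cd74, and H2-DM loads the peptide. Class II is constitutive in dendritic cells and B cells, and interferon-gamma induces it in other cells, including the small-intestinal epithelium, through the coactivator Ciita. Nlrc5 is the related coactivator for class I.

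No MHC gene passed the test for a difference between mutants and controls. Of the 54, 43 passed a filter of a mean of 0.2 FPKM or more, and limma with Benjamini-Hochberg adjustment over all genes tested called 0 of these 43 at an adjusted p under 0.05, as it called 0 of 14642 genes in all (0%). At an unadjusted p under 0.05 it marked 1 of the 43, Erap1, against 2.84% of all genes. The median log2 change, mutant minus control, was 0.05 over the 43 genes and 0.00 over all genes. In the authors' deposited table of their DESeq comparison, 0 of the 45 MHC genes with a p-value were under 0.05 before adjustment, against 1.12% of all genes, and 0 were under it after adjustment, against 0.0269%, and the smallest p was 0.196, for Erap1. Most class II genes varied from mouse to mouse in both groups, as did some other members, H2-Q10, H2-M2, H2-M9, Ciita and Nlrc5 among them.

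Cd74, the invariant chain, was at 826, 2338 and 724 FPKM in controls 1 to 3 and at 1973, 1548 and 835 FPKM in mutants 1 to 3. Control 2, mutant 1 and mutant 2 were high, the other 3 mice were low, and the groups overlapped over most of their range. The controls averaged 1296 ± 904 FPKM and the mutants 1452 ± 575 FPKM (SD, n = 3 each). The log2 change was 0.29 (SE 0.49, 95% interval -0.87 to 1.44, adjusted p = 1.00 by limma). This interval holds a change of up to 2.72-fold higher and one to 0.549 of the control level, so the data do not show that the groups are alike. The estimate depended on single mice, and was 0.82 (SE 0.35, adjusted p = 1.00) without control 2, 0.64 without mutant 3, 0.07 without control 1, 0.02 without mutant 1 and -0.02 without control 3.

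The chains of the class II molecules moved with Cd74. H2-Ab1, the beta chain of I-A, was at 176, 571 and 159 FPKM in controls and at 489, 358 and 189 FPKM in mutants. H2-Aa, its alpha chain, was at 162, 578 and 158 FPKM in controls and at 538, 359 and 185 FPKM in mutants. H2-Eb1, the beta chain of I-E, was at 163, 361 and 160 FPKM in controls and at 364, 263 and 183 FPKM in mutants. Control 2 and mutant 1 were the 2 highest mice for all 3 chains, mutant 2 was in the middle, and control 3 was lowest. The log2 changes were 0.35 (SE 0.54) for H2-Ab1, 0.42 (SE 0.57) for H2-Aa and 0.30 (SE 0.37) for H2-Eb1, each with an adjusted p of 1.00 by limma. Without control 2 they were 0.94, 1.04 and 0.69, still with an adjusted p of 1.00. These 3 genes lie side by side on chromosome 17 of mm9, H2-Ab1 from 34400172 to 34406363, H2-Aa from 34419696 to 34424716 and H2-Eb1 from 34442812 to 34453619.

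The genes of H2-DM, the peptide exchange factor, had the same 3 mice at the top. H2-DMa was at 43.6, 95.1 and 33.9 FPKM in controls and at 79.5, 68.7 and 42.3 FPKM in mutants. H2-DMb1 was at 22.0, 60.8 and 16.7 FPKM in controls and at 46.2, 41.7 and 19.7 FPKM in mutants. H2-DMb2 was at 22.6, 66.5 and 17.8 FPKM in controls and at 46.7, 44.1 and 23.3 FPKM in mutants. Control 2 was highest, mutants 1 and 2 came next and control 3 was lowest, with groups that overlapped. The log2 changes lay between 0.24 and 0.28, were between 0.67 and 0.85 without control 2, and turned to between -0.12 and -0.07 without control 3. H2-DMb1 and H2-DMb2 are near copies. Of their words of 101 bases, the read length fitted here, 13.6% and 11.9% are shared with the other in GENCODE protein-coding transcripts. How their shared reads were divided was not tested.

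The other class II genes were low and varied less between mice. H2-Eb2 was at 1.40, 1.54 and 1.69 FPKM in controls and at 1.55, 1.91 and 1.76 FPKM in mutants. H2-Oa and H2-Ob encode H2-O, which restrains H2-DM and is known from B cells and some dendritic cells. H2-Oa was at 1.34, 1.58 and 1.18 FPKM in controls and at 1.56, 1.90 and 1.51 FPKM in mutants, and H2-Ob at 1.04, 0.974 and 1.09 FPKM in controls and at 0.681, 1.19 and 1.38 FPKM in mutants. The highest mouse was at most 2.03 times the lowest for these genes, against 2.28 to 3.75 times for Cd74, the I-A and I-E chains above and H2-DM. Each rests on few reads, 26.7 on average for H2-Oa, 55.5 for H2-Ob and 110 for H2-Eb2, which limits the precision of each value. H2-Ea-ps, the I-E alpha chain gene, whose symbol marks it as a pseudogene, was at 0.0821 FPKM in control 3 and listed at 0 in the other 5 mice.

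**Figure D1:**
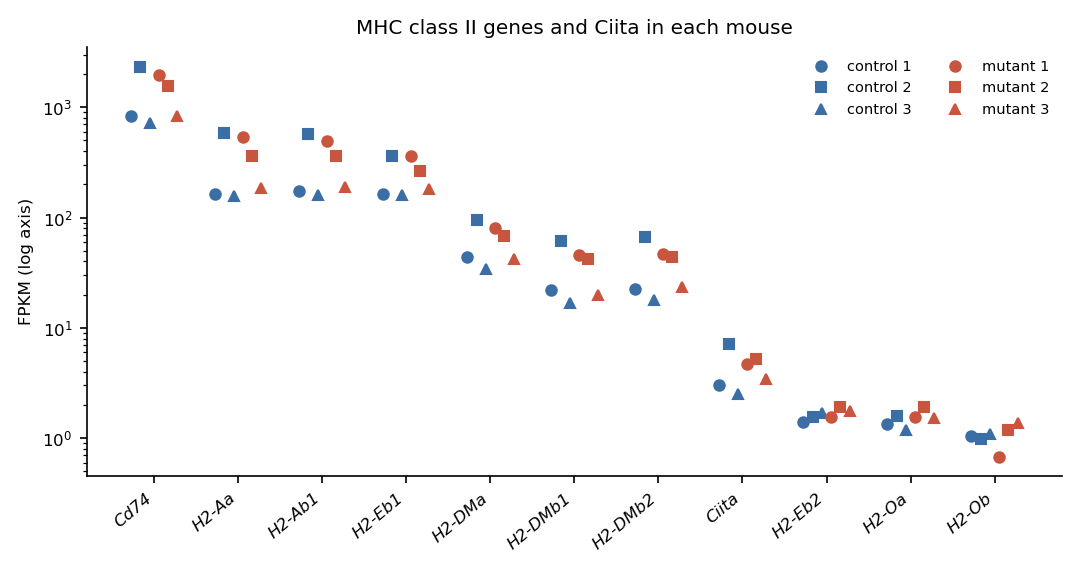
FPKM (log axis) of Cd74, 9 other class II genes and Ciita in each of the 6 mice, with control mice in blue, mutant mice in red and the replicate number as the marker. From Cd74 to Ciita, control 2, mutant 1 and mutant 2 are the 3 highest mice, while H2-Eb2, H2-Oa and H2-Ob stay within 2.03 times between mice.

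All 10 tested class II genes had a higher mean log2 level in mutants, with a median log2 change of 0.27, and none passed the test. The sign turned for H2-Ob under quantile normalization, under upper quartile scaling and without control 2, mutant 2 or mutant 3, and for Cd74 and the H2-DM genes without control 3. This median was 0.75 without control 2, 0.03 without control 3 and 0.06 without mutant 1. The 3 highest mice were control 2, mutant 1 and mutant 2 for 8 of these 10 genes, a set of 3 that was highest for 2.36% of all genes and was counted after the values were seen. On FPKM + 0.1, the highest mouse exceeded the lowest at least 2-fold for 7 of the 10 class II genes, against 0 of 3 for the classical class I heavy chains with B2m, 3 of 19 for the class Ib genes with Cd1d1, 0 of 7 for peptide supply, and 15.3% of all genes. H2-Ob, at 2.03 times in FPKM, was under 2-fold on this scale. Among the 6347 genes with a mean of 10 FPKM or more, the spread within groups (residual SD of the log2 level) ranked 67th for H2-Aa at 0.94, 76th for H2-Ab1 at 0.88 and 93rd for Cd74 at 0.80, where the median gene had 0.14. In bulk tissue, more cells that carry a transcript and more of it per cell cannot be told apart.

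Genes were also ranked by how closely their profile over the 6 mice followed that of Cd74, as the root mean square of the differences between centred log2 levels. This measure was chosen after the values were seen and is a description. Of 14641 genes, the 6 closest were H2-Ab1 at a distance of 0.08, H2-DMb1 at 0.09, H2-DMb2 at 0.11, H2-DMa and H2-Aa at 0.15 each and H2-Eb1 at 0.19. The next were 1700084E18Rik at 0.24, Folr4 at 0.25, Ciita at 0.26 and Cd6, a surface receptor of T cells, at 0.27. The first of these and Folr4 had means of 0.540 and 0.287 FPKM, so their profiles rest on few reads. The closest percent of genes lay within 0.51, and the median gene was at 0.69. Ctsh, an endosomal protease, stood at rank 18 and Ifng, the gene of interferon-gamma, at rank 20, although Ifng had only 0.0943 to 0.368 FPKM. Cd74 lies on chromosome 18 and Ciita on chromosome 16 from 10480165 to 10527657, so the likeness was not confined to the chromosome 17 cluster.

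**Figure D2:**
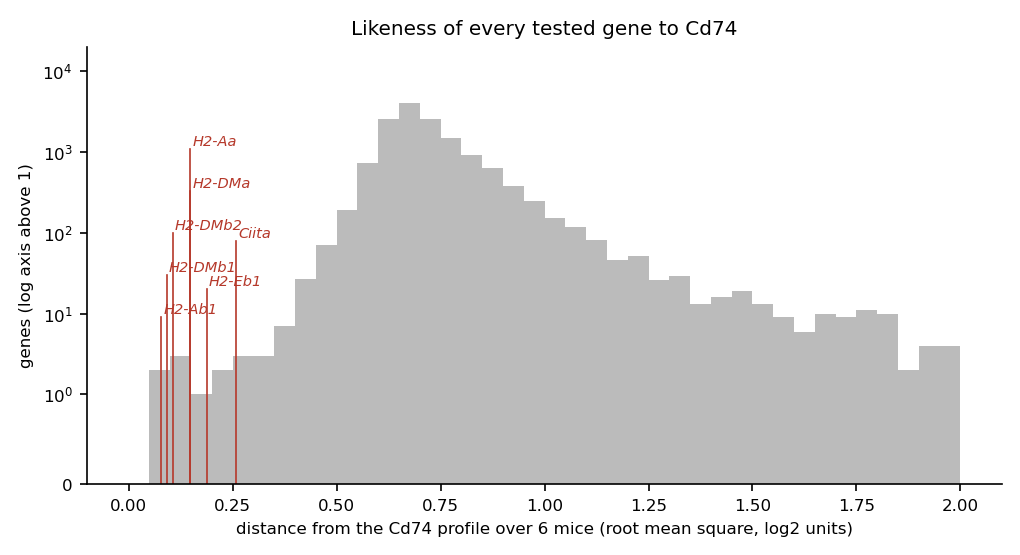
Number of genes (log axis above 1) by distance of their 6-mouse profile from that of Cd74, with the 7 closest MHC genes marked by red lines whose height only spaces the names. Distances of 2 and above are not drawn. The 6 class II genes lie between 0.08 and 0.19 and Ciita at 0.26, while the median gene is at 0.69.

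The proportions among class II transcripts were steadier than their levels. The ratio of H2-Aa to H2-Ab1, from FPKM, was 0.922, 1.01 and 0.992 in controls and 1.10, 1.00 and 0.977 in mutants. The ratio of Cd74 to H2-Ab1 was 4.03 to 4.70 over the 6 mice. H2-Eb1 held a less constant ratio to H2-Ab1, of 0.925, 0.632 and 1.00 in controls and 0.745, 0.734 and 0.968 in mutants, and was lowest where class II was highest. Between groups, an exact two-sided permutation test of these ratios gave p = 0.5 for H2-Aa, 0.4 for Cd74 and 0.9 for H2-Eb1, where 3 mice against 3 cannot give less than 0.1.

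Cd74 is spliced into a short and a long form, of which the long one carries an extra exon that encodes a protease inhibitor domain. The long form, of 1415 bases, made up 21.8%, 15.4% and 21.4% of Cd74 FPKM in controls and 16.5%, 16.6% and 22.8% in mutants. Control 2, mutant 1 and mutant 2, the mice with most Cd74, had the lowest shares, and the groups overlapped. The mean was 19.5% ± 3.598 in controls and 18.6% ± 3.63 in mutants (SD, n = 3 each, exact two-sided permutation p = 1). Both forms were themselves higher in those mice, the short one at 1290 to 1978 FPKM and the long one at 258 to 360 FPKM, than in the other 3, with 569 to 645 FPKM and 155 to 191 FPKM. The shares come from the authors' division of reads among isoforms and were not checked against junction reads.

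Ciita, the class II coactivator, was at 3.02, 7.11 and 2.49 FPKM in controls and at 4.66, 5.26 and 3.46 FPKM in mutants. Control 2 was highest and mutants 1 and 2 came next, as for class II. The log2 change was 0.21 (SE 0.38, adjusted p = 1.00 by limma), and it was 0.66 without control 2 and -0.08 without control 3. Its transcripts have different start sites in the deposited tables. The transcript of 5091 bases was at 1.801, 6.37 and 1.26 FPKM in controls and at 3.04, 3.79 and 2.23 FPKM in mutants, and so carried most of the range between mice. The transcript of 5359 bases was at 1.22, 0.747 and 1.23 FPKM in controls and at 1.62, 1.47 and 1.23 FPKM in mutants, and was lowest in control 2. Over isoforms, limma called 5 of 17922 (0.0279%) at an adjusted p under 0.05, and 0 of the 47 tested from MHC genes. At an unadjusted p under 0.05 it marked 1 of the 47, that of Erap1, against 3.53% of all isoforms.

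Nlrc5, the class I coactivator, was at 1.31, 3.17 and 1.13 FPKM in controls and at 1.35, 2.43 and 1.76 FPKM in mutants. It shared the high level of control 2 and mutant 2, but in mutant 1 it was near its level in controls 1 and 3. The log2 change was 0.09 (SE 0.39, adjusted p = 1.00 by limma).

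**Figure D3:**
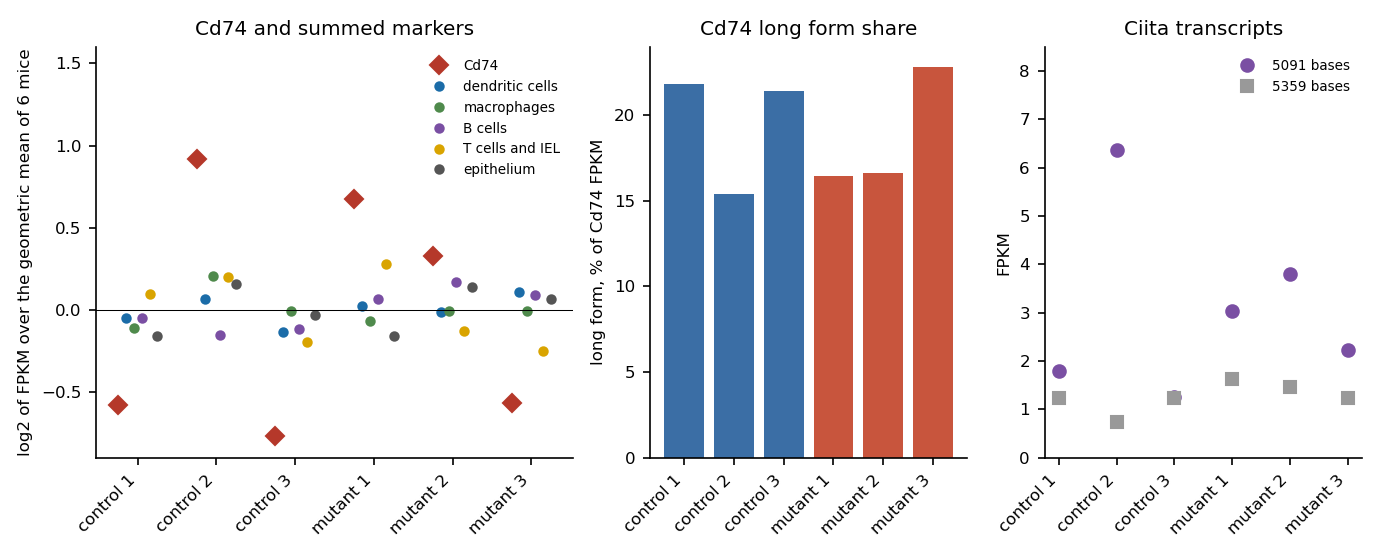
By mouse: left, log2 of Cd74 and of the summed FPKM of cell type markers over their geometric mean, where IEL stands for intraepithelial lymphocytes; middle, the long form as a percent of Cd74 FPKM, controls in blue and mutants in red; right, FPKM of 2 Ciita transcripts. The marker sums drawn stay closer to the line at 0 than Cd74 does. Of the lists not drawn, the highest mouse was 1.34 times the lowest for duodenal and 1.39 times for plasma cell markers. It was 2.17 times for group 3 innate lymphoid cells and 117 times for pancreatic acinar markers. The long form share is 15.4% to 22.8%, and the 5091-base Ciita transcript reaches 6.37 FPKM in control 2.

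The summed levels of markers of the cells that carry class II constitutively were not highest in the same 3 mice as class II. Among the 8 dendritic cell markers, 1 (Ccr7) was highest in those mice, on few reads. The summed level of 8 dendritic cell markers, all detected in each mouse, was 15.6 to 17.9 FPKM in controls and 16.9 to 18.5 FPKM in mutants. Flt3, a defining receptor of dendritic cells, was at 0.532 FPKM in mutant 1, its lowest value, and at 0.947 to 1.16 FPKM in the other mice. Ccr7, a homing receptor of migrating dendritic cells and of T cells, was highest in the same 3 mice as class II. It was at 0.424, 0.578 and 0.320 FPKM in controls and at 0.445, 0.594 and 0.346 FPKM in mutants. Its order rests on few reads, an estimated 16 in control 1 and 15 in mutant 1. Batf3, a dendritic cell transcription factor, was highest in mutant 1 at 4.90 FPKM and next in mutant 3 at 4.70 FPKM, with control 2 at 3.46 FPKM. The 8 B cell markers summed to 23.9 to 25.7 FPKM in controls and 27.8 to 29.95 FPKM in mutants, so that every mutant was above every control, with Pax5 at 0 in 4 mice, Cr2 at 0 in 1 and Fcer2a at 0 in 2. The 9 macrophage markers summed to 283, 353 and 304 FPKM in controls and to 292, 305 and 304 FPKM in mutants, and were highest in control 2. The 9 markers of T cells and intraepithelial lymphocytes summed to 334, 360 and 273 FPKM in controls and to 379, 286 and 263 FPKM in mutants, a sum made up mostly of Gzma, whose mean was 207 FPKM. Within this list Cd8a, the alpha chain of CD8, was highest in the same 3 mice as class II, at 8.52, 10.5 and 6.96 FPKM in controls and at 10.9, 10.3 and 7.15 FPKM in mutants, and Cd3e was highest in control 2 and mutant 2, at 11.1 and 9.52 FPKM. Control 2, mutant 1 and mutant 2 were the highest 3 mice for 1 of the 8 dendritic cell markers, 1 of the 9 of T cells and intraepithelial lymphocytes, and 0 of the 8 B cell, 9 macrophage and 8 epithelial markers, against 2.36% of all genes. The 8 epithelial markers summed to between 3557 and 4433 FPKM, lowest in mutant 1. Their part in the class II differences was not tested.

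The 5 markers of group 3 innate lymphoid cells, which can carry class II, summed to 19.7, 37.5 and 24.5 FPKM in controls and to 17.3, 32.8 and 25.3 FPKM in mutants, with Il17a and Il22 at 0 in some mice. They were highest in control 2 and mutant 2 and lowest in mutant 1. The 7 pancreatic acinar markers, which report adhering pancreas, summed to 28.9, 0.545 and 16.8 FPKM in controls and to 0.272, 31.8 and 0.740 FPKM in mutants, and did not follow class II. Of the 2 male mice, control 1 was low in Cd74 and mutant 1 was high, as were 2 of the 4 female mice. The parts of these cells and of sex were not tested. Among the females alone, Cd74 was at 2338 and 724 FPKM in controls and at 1548 and 835 FPKM in mutants, and these overlapped.

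The promoters of 4 class II genes whose levels moved together are shown because they carry the paired boxes known from class II promoters. The X box is bound by the RFX complex and the Y box, a reversed CCAAT box, by NF-Y, and Ciita acts through the proteins bound there. Printed are the 150 bases before the start site from RefSeq, on build GRCm38.p6, 5′ to 3′ on the gene's strand, with matches to CTNNNAAC, the core of the X box, and to GATTGG, the Y box, in capitals.
H2-Aa: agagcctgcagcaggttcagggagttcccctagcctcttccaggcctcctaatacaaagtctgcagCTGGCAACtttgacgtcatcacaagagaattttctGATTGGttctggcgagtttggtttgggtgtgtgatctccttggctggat
H2-Eb1: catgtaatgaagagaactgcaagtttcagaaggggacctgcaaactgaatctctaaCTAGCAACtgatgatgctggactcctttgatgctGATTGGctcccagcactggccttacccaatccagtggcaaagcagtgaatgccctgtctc
H2-DMb1: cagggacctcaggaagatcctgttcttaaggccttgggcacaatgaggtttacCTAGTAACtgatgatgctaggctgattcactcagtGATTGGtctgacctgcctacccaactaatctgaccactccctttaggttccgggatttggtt
H2-DMb2: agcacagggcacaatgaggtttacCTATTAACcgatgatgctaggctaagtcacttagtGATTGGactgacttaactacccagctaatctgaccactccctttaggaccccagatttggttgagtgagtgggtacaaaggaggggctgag
They lie at chr17:34287824-34287973 on the minus strand for H2-Aa, and on the plus strand at chr17:34305717-34305866 for H2-Eb1, chr17:34153041-34153190 for H2-DMb1 and chr17:34145099-34145248 for H2-DMb2. The motif letters were chosen after these sequences had been seen. Searched on both strands in windows of 300 bases, CTNNNAAC was found in 41.1% of 32851 promoters and GATTGG in 16.1%, and the 2 do not overlap in the stretches printed. The pair, in this order with 26 or 27 bases between them, was found in 11 of the 32851 promoters (0.0335%), and 4 of these are the ones printed. That spacing is the one found in the 4 printed promoters, so this share is a description and no test. The promoters of H2-DMa, which also moved with Cd74, held no such pair, and H2-Ab1, Cd74 and Ciita had no promoter to search. The table held 41 promoters for 38 of the 54 MHC genes, of which 30 held GATTGG, among them those of H2-Eb2, H2-Oa, H2-Ob, H2-K1, H2-D1 and B2m, whose levels varied less between mice. A match describes letters in this window and not a bound site.

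The classical class I genes were abundant and varied less between mice than most class II genes. B2m, the light chain, was at 3107, 3656 and 3024 FPKM in controls and at 3409, 2930 and 2911 FPKM in mutants. H2-D1 was at 1040, 1388 and 1012 FPKM in controls and at 1144, 1094 and 1047 FPKM in mutants. H2-K1 was at 441, 614 and 398 FPKM in controls and at 542, 430 and 426 FPKM in mutants. Control 2 was highest for all 3 genes, as it was for 25 of the 43 tested MHC genes against 11.3% of all genes, and the groups overlapped. The log2 changes were -0.08 (SE 0.12, 95% interval -0.37 to 0.21) for B2m, -0.05 (SE 0.14, interval -0.37 to 0.27) for H2-D1 and -0.04 (SE 0.18, interval -0.46 to 0.38) for H2-K1, each with an adjusted p of 1.00 by limma, and all 3 turned positive without control 2. The highest mouse was 1.26, 1.37 and 1.54 times the lowest for these genes, where Cd74 had 3.23 and the median of all genes, on FPKM + 0.1, was 1.40. The ratio of B2m to the summed heavy chains was 1.83 in control 2 and 1.92 to 2.14 in the other mice.

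The class Ib genes present special ligands or are of restricted expression. H2-Q2, H2-Q1 and H2-T3 were the most abundant, and none passed the test. H2-Q2 was at 340, 447 and 419 FPKM in controls and at 376, 327 and 462 FPKM in mutants. H2-Q1 was at 310, 450 and 357 FPKM in controls and at 328, 283 and 340 FPKM in mutants. H2-T3, the thymus leukaemia antigen, a ligand of CD8 alpha on intraepithelial lymphocytes, was at 95.03, 107 and 110 FPKM in controls and at 113, 93.6 and 121 FPKM in mutants. The groups overlapped for each of these genes, and their log2 changes were -0.06 (SE 0.16), -0.22 (SE 0.15) and 0.07 (SE 0.12). H2-T23, which encodes Qa-1, averaged 49.1 ± 7.08 FPKM in controls against 47.4 ± 3.76 FPKM in mutants. H2-M3, which presents formylated peptides, averaged 5.77 ± 1.00 against 6.69 ± 1.04 FPKM (SD, n = 3 each). H2-Q4 was at 85.6 to 120 FPKM, H2-Bl at 56.3 to 87.2 FPKM, H2-K2 at 6.51 to 8.85 FPKM, H2-T24 at 1.99 to 2.99 FPKM and H2-M2 at 0.567 to 1.75 FPKM over the 6 mice. Over the 19 class Ib genes tested, Cd1d1 among them, the median log2 change was 0.00, with 9 higher and 10 lower in mutants.

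H2-Q10 encodes a secreted class I protein known from liver. It was at 28.8, 16.9 and 11.1 FPKM in controls and at 14.3, 38.1 and 11.9 FPKM in mutants. Mutant 2 and control 1 were high, which is another order than that of class II, and the 2 mice were also the highest in the pancreatic acinar markers given above, whose part was not tested. The log2 change was 0.09 (SE 0.49), 0.44 without control 1 and -0.42 without mutant 2. Cd1d1, which presents lipids to NKT cells, was at 1.75, 2.00 and 2.43 FPKM in controls and at 2.26, 2.37 and 2.23 FPKM in mutants, and its log2 change was 0.16 (SE 0.16).

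For several class Ib genes the authors' counts and the FPKM did not match in level. The authors' mean count for a gene was a median of 100.6% of the reads estimated here from isoform coverage, over 12182 genes with at least 50 reads. It was 0 for H2-Q7, H2-T9 and H2-T22, 9.73% for H2-Q6, 18.2% for H2-K2, 22.2% for H2-Q10, 48.6% for H2-T23 and 50.99% for H2-DMb2. H2-T9, at 19.6 to 23.9 FPKM, shares 98.3% of its 101-base words with another gene in GENCODE transcripts, and H2-Q6, at 42.0 to 62.2 FPKM, shares 8.99%, mostly with H2-Q7, at 28.8 to 43.5 FPKM. H2-T10, at 13.6 to 17.1 FPKM, shares 9.43% with H2-T22, which was at 1.38 to 2.73 FPKM. Of the 48 MHC genes with such a transcript, 35, among them Cd74, H2-Aa, H2-Ab1, H2-Eb1, H2-K1 and B2m, share no such word with another gene searched. Only exact matches among protein-coding transcripts were searched. H2-K2, H2-Q1, H2-Q8 and H2-Q9 had no transcript there, so no gene, H2-K1 included, was compared with them. H2-Q10 and H2-T23 share 1.72% and 4.37% of such words, and H2-D1, whose authors' count was 88.3% of the estimated reads, shares 3.86%. Why the authors' counts were low for some genes was not tested. Levels of the genes with copies are uncertain, and the H2 haplotypes of these mice, which can differ in sequence from the reference, were not tested.

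No gene of peptide supply passed the test. The immunoproteasome subunit Psmb8 was at 271, 368 and 261 FPKM in controls and at 327, 286 and 290 FPKM in mutants. Psmb9 was at 171, 217 and 159 FPKM in controls and at 223, 193 and 196 FPKM in mutants, and Psmb10 at 231, 236 and 226 FPKM in controls and at 226, 217 and 232 FPKM in mutants. Psmb10 was among the steadiest of all MHC genes, with the highest mouse 1.09 times the lowest. Set against the constitutive subunits they replace, Psmb5, Psmb6 and Psmb7, the 3 made up a mean share of 63.9% ± 2.24 in controls and 64.1% ± 1.13 in mutants (SD, n = 3 each, exact two-sided permutation p = 0.9). The share was highest in control 2, at 66.5%, and 62.4% to 64.8% in the other mice.

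The transporter genes and tapasin did not pass either. Tap1 was at 30.2, 42.1 and 26.2 FPKM in controls and at 33.6, 32.0 and 31.0 FPKM in mutants, again highest in control 2. Tap2 was at 61.8, 70.3 and 57.1 FPKM in controls and at 72.4, 54.8 and 67.9 FPKM in mutants, and Tapbp, tapasin, at 117, 118 and 113 FPKM in controls and at 113, 97.1 and 116 FPKM in mutants. Their log2 changes were 0.00 (SE 0.17), 0.04 (SE 0.13) and -0.10 (SE 0.09).

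Erap1, the aminopeptidase that trims class I peptides, was the only tested MHC gene without overlap between the groups. It was at 33.1, 30.2 and 32.1 FPKM in controls and at 27.9, 27.1 and 27.7 FPKM in mutants. Every mutant was below every control, and the step between the lowest control and the highest mutant was smaller than the range within the controls. The log2 change was -0.21 (SE 0.08, 95% interval -0.39 to -0.02), with an unadjusted p of 0.0342 and an adjusted p of 1.00 by limma, so it did not pass the test. One such gene among 43 is 2.33%, where 7.57% of all genes had groups without overlap and 3.43% had them with the mutants lower. Erap1 lies on chromosome 13 of mm9 from 74777320 to 74829323.

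**Figure D4:**
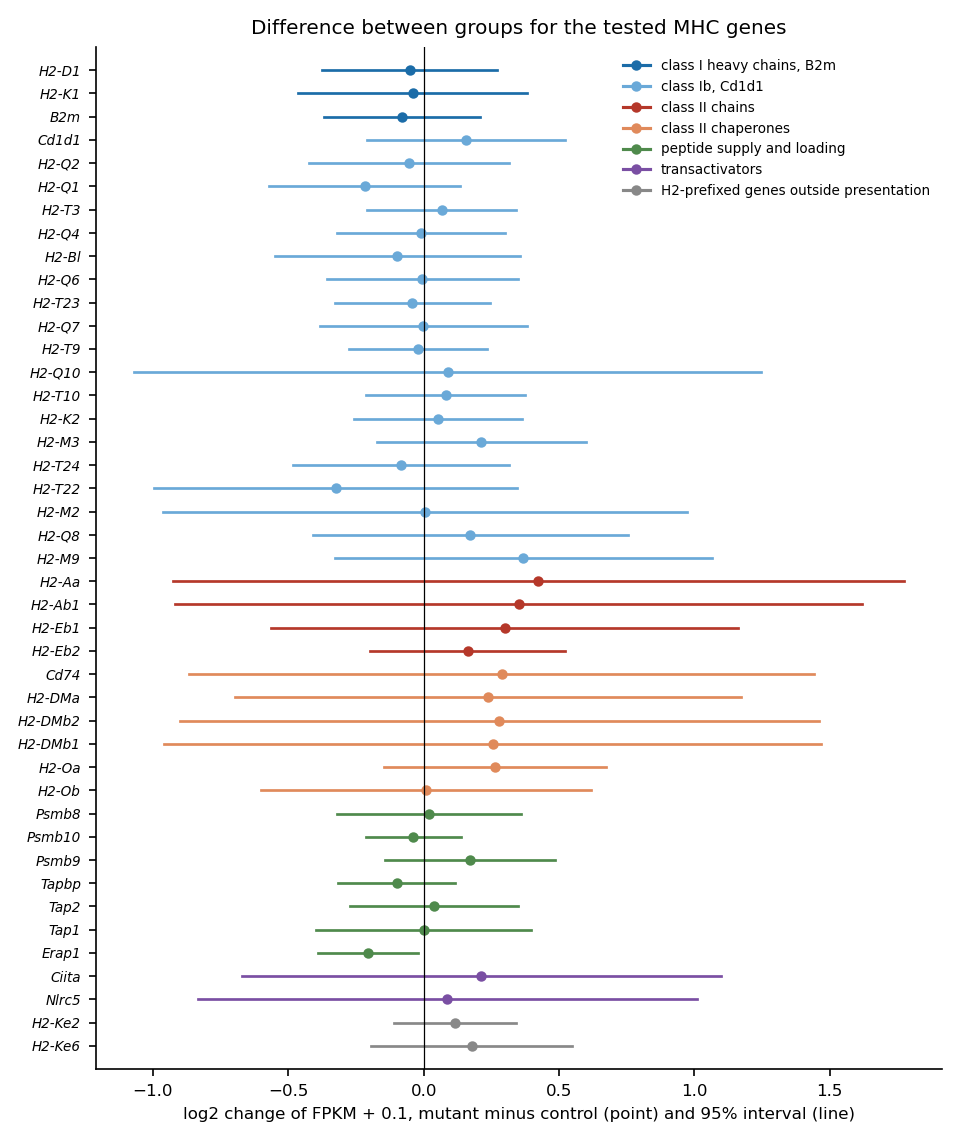
Log2 change of FPKM + 0.1, mutant minus control (points), with 95% intervals (lines) for the 43 tested MHC genes, by role. Each interval but that of Erap1 crosses 0, and those of the class II chains, Cd74 and H2-DM are among the widest.

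Leaving out control 2 altered the picture most. Without it, 18 of the 43 tested genes had groups without overlap (41.9%), against 15.8% of all genes. In 17 of them the mutants were higher, where 6.31% of all genes had this. Control 2 was the highest mouse for 25 of the 43, so leaving it out makes mutants above controls easier to reach. These genes also moved together, so the count is a description and no test. With all 6 mice it was 0 of the 43 with mutants higher, against 4.14% of all genes. The 17 held 6 class II genes, H2-Oa, H2-DMb2, H2-Ab1, H2-Aa, H2-Eb1 and Cd74, as well as Ciita, Nlrc5, H2-D1, Tap1, Psmb8 and Psmb9. Limma still called 0 of the 43, with an adjusted p of 1.00 for each of these class II genes and unadjusted p-values of 0.0344 to 0.0865. Leaving out any other single mouse left 2 to 6 of the 43 without overlap (4.65% to 14.0%), where 14.1% to 19.4% of all genes had none. The labels give each control a genotype of its own, and that of control 2, Rosa26Tomato/+, was not shared by another mouse.

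**Figure D5:**
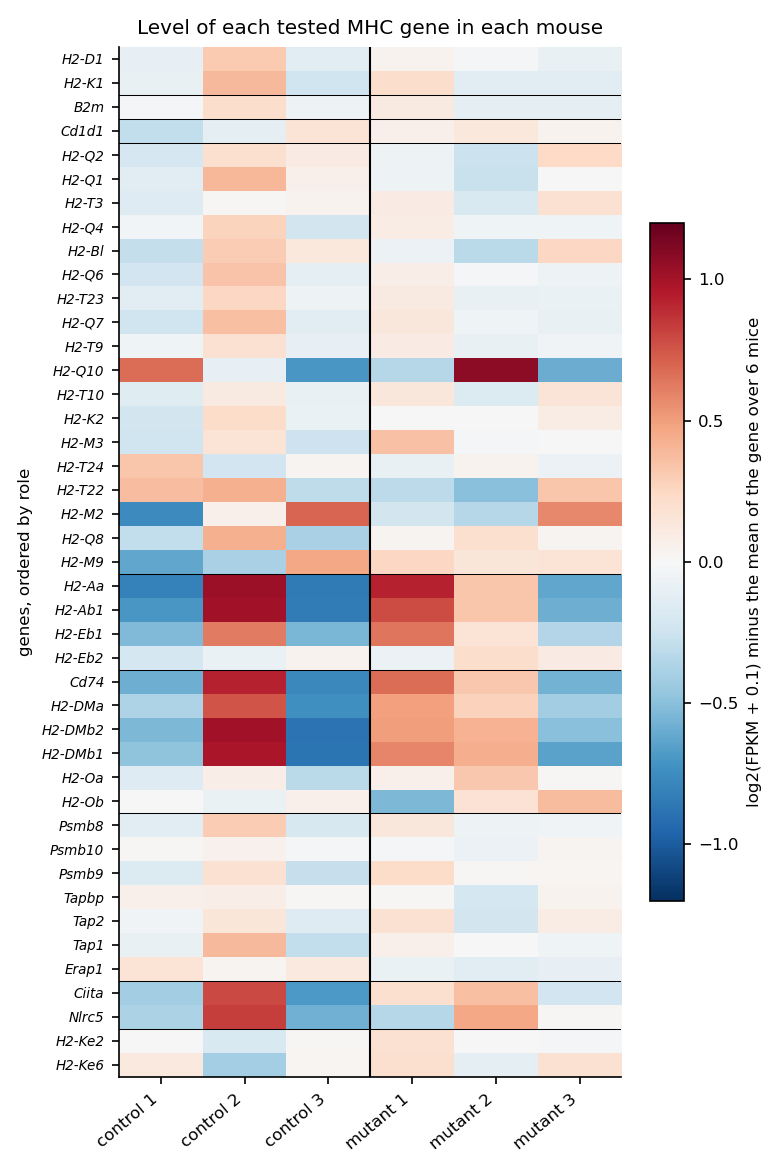
Level of the 43 tested MHC genes (rows, by role) in the 6 mice (columns), as log2(FPKM + 0.1) minus the mean of the gene, red for above and blue for below. The rows of Cd74, H2-Aa, H2-Ab1, H2-Eb1 and the H2-DM genes are red in control 2, mutant 1 and mutant 2, and that of H2-Oa is palely so. H2-Eb2 and H2-Ob are below their means in control 2 and mutant 1. Most class I rows are palely red in control 2.

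No gene among their known partners passed the test. Of 55 genes in 8 lists (constitutive proteasome, class I folding helpers, endosomal proteases, class II ubiquitin ligases, MHC promoter factors, interferon-gamma signalling, other class I-like genes and costimulation), 53 were tested, 0 were called higher and 0 lower, and 0 had an unadjusted p under 0.05. Their median log2 change was 0.01, and 4 had groups without overlap, where 7.57% of all genes did, a share near that of these lists. They were Psmb5, Psmb6, Cd80 and Jak1, of which the first 3 are named for this alone. Jak1, a kinase of the interferon receptors, was at 33.7, 32.4 and 32.7 FPKM in controls and at 29.7, 29.5 and 29.3 FPKM in mutants, and its log2 change was -0.16 (SE 0.07, adjusted p = 1.00 by limma). Psme1, Hspa5, P4hb, Cst3, March1, March8, Nfyc, Ifngr2, Fcgrt and Icosl had log2 changes between -0.06 and 0.11, and Mill2, a class I-like gene at 0.472 to 2.02 FPKM, had 0.72 (SE 0.39). Rfx5, a subunit of the factor that binds the X box, was at 3.13 to 3.78 FPKM in the 6 mice, with a log2 change of 0.07.

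Some of these genes shared all or part of the order of class II from mouse to mouse. Irf1, an interferon-induced transcription factor, was at 137, 173 and 91.2 FPKM in controls and at 145, 129 and 111 FPKM in mutants. Ctsh was at 41.7, 79.8 and 41.3 FPKM in controls and at 59.6, 75.5 and 54.4 FPKM in mutants. Control 2 was highest and control 3 lowest for both. The 3 highest mice for Ctsh were those of class II, but Irf1 was higher in control 1 than in mutant 2. In likeness to Cd74, Irf1 stood at rank 53, at a distance of 0.46. Ctss, the protease that degrades the invariant chain in dendritic cells and B cells, was at 209, 240 and 228 FPKM in controls and at 192, 199 and 209 FPKM in mutants, and its log2 change was -0.17 (SE 0.09, adjusted p = 1.00 by limma). Psme2, a subunit of the interferon-induced proteasome activator, was at 172, 196 and 179 FPKM in controls and at 223, 187 and 220 FPKM in mutants, and its log2 change was 0.20 (SE 0.10). Cd40, a costimulatory receptor, was at 1.13, 0.860 and 0.733 FPKM in controls and at 1.06, 1.34 and 1.41 FPKM in mutants.

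The remaining members were low or had no estimate. The 10 genes under the filter were H2-Ea-ps, H2-M1, H2-M5, H2-M10.1 to H2-M10.6 and H2-M11, none above 0.117 FPKM in any mouse, and 5 of them were listed at 0 in every mouse. H2-Q9 had no successful estimate in the authors' tables in any mouse and was not tested. H2-Q8 was at 0.7502 to 1.39 FPKM and H2-M9 at 0.514 to 1.21 FPKM. H2-Ke2 was at 64.1 to 82.5 FPKM, and H2-Ke6 at 23.8 to 36.2 FPKM with its lowest value in control 2.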

How the data were processed

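Levels are FPKM per gene and per isoform, made by the authors. The submitters' processing notes name the authors' tools, TopHat, Cufflinks, DESeq and CASAVA 1.8.2, and the build mm9, with no settings. Coverage, a signal, and length are deposited with the isoforms. A table of the authors' DESeq comparison holds group means of normalized counts, their ratio, its log2 value and p-values, with no value per library, and was used only as a description. Annotation starts in the gene tables count from 0 and are given here from 1.

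Of 23699 gene rows, 344 lacked a successful estimate, and 464 rows of repeated symbols were dropped for the row with the highest mean. Limma 3.58.1 in R 4.3.3 was fitted with a mean-dependent prior variance to log2(FPKM + 0.1) of the 14642 genes whose mean reached 0.2 FPKM. Two-sided p-values for mutant minus control were adjusted by Benjamini-Hochberg over all these genes, with 0.05 as the threshold. The pseudocount understates changes of low genes. Each of the 6 libraries is taken as 1 mouse, by genotype and replicate number of the labels, and no 2 held identical values. The labels number the libraries but name no animals. The libraries differ in genotype, except mutants 1 and 3, which share one and differ in Y-linked transcripts. They therefore come from different mice. P-values measure the spread between these samples, in which differences between mice and technical ones cannot be told apart. Tested on simulated data for mutant against control over 14642 genes, 68 of 100 genes changed 2-fold and 96 of 100 changed 4-fold were recovered, with 7 false calls. The changed genes were drawn from expressed genes of any spread. These shares need not hold for genes of wide spread such as H2-Aa and Cd74, with residual SDs of 0.94 and 0.80.

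No counts per library were used. Reads were estimated from coverage, isoform length less 210.32 bases and a read length of 101 bases. Both numbers were fitted, as those giving the most whole values for single-isoform genes in control 1. Over the libraries, 65.2% to 66.8% came out whole within 0.05, which in control 1 is no independent check. The reads are therefore estimates, and intervals cover no more than the spread between mice. Named were all tested members with at least 1 FPKM in class Ib and 0.2 FPKM elsewhere, and of each other list the genes with the smallest p or highest mean; Irf1, Ctsh, Ifng, Flt3, Cd6, Folr4, 1700084E18Rik, Psmb5, Psmb6, Cd80, the H2-Ke genes and H2-M9, and the marker genes, were named after their values were seen. The members and lists were chosen with earlier results of these data known.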

Additional observations from a re-analysis of the deposited data

How the results depend on the processing

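No MHC gene, MHC isoform or partner gene was called under any setting run, which were a pseudocount of 1, no filter, a filter of 1 FPKM, quantile normalization, upper quartile scaling, limma-voom on estimated reads, repeated symbols summed, the replicate number as a block and each library left out in turn, where they apply. Over all genes, 12 were called with no filter and 1 with the replicate block, and leaving out 1 library gave 0 to 3. Same-numbered mice correlated at 0.25, 0.03 and 0.25 in their deviations, so the numbers were not taken as pairs, and not every mouse correlated best with its own number. Leaving out 1 library gave 2 to 18 MHC genes without overlap, a median change of peptide supply of -0.07 to 0.12 (0.12 without control 2), a difference in the immunoproteasome share of -0.64 to 1.40 percentage points and one in the Cd74 long form share of -3.001 to 0.23. Of 56 named genes, 32 changed sign in 76 of 784 values, 25 of them only when 1 library was left out, and the cause was not tested. Quantile normalization turned Tap1 to -0.0208, Psmb8 to -0.0302, H2-Ob to -0.0124, H2-M2 to -0.0221, Ifngr2 to -0.0015 and P4hb to -0.0517. Upper quartile scaling turned Tap1 to -0.0113, H2-Ob to -0.00065 and H2-M2 to -0.0071. A pseudocount of 1 turned Tap1 to -0.000503 and H2-M2 to -0.0141, and limma-voom turned H2-Q7 to 0.00097. With 1 library left out, the log2 changes that changed sign ranged as follows. They were B2m -0.154 to 0.00458, Cd74 -0.0243 to 0.821, Ciita -0.0782 to 0.66, Cst3 -0.0747 to 0.0379, Fcgrt -0.136 to 0.0897, H2-Bl -0.265 to 0.0412, H2-D1 -0.135 to 0.0934, H2-DMa -0.0703 to 0.672. Then came H2-DMb1 -0.121 to 0.808, H2-DMb2 -0.0949 to 0.855, H2-K1 -0.169 to 0.143, H2-K2 -0.0425 to 0.176, H2-M2 -0.378 to 0.357, H2-Ob -0.18 to 0.283, H2-Q10 -0.425 to 0.445, H2-Q2 -0.188 to 0.0612. Next were H2-Q4 -0.123 to 0.122, H2-Q6 -0.119 to 0.165, H2-Q7 -0.119 to 0.18, H2-T23 -0.114 to 0.0723, H2-T24 -0.221 to 0.0597, H2-T3 -0.00936 to 0.173, H2-T9 -0.077 to 0.0662, Icosl -0.285 to 0.249. The rest were Ifngr2 -0.0214 to 0.117, March1 -0.16 to 0.0158, March8 -0.0889 to 0.042, Nlrc5 -0.18 to 0.524, P4hb -0.052 to 0.0871, Psmb8 -0.0714 to 0.176, Tap1 -0.148 to 0.193, Tap2 -0.0431 to 0.157. With 3 mice a group and this spread in class II, changes within the intervals given were not detectable. FPKM of low genes and of near copies is the least certain.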
